A study of Mus musculus with 147 samples.

Results

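The cytosolic ribosomal protein genes encode the proteins of the large (60S) and small (40S) subunits of the ribosome in the cytosol. They were taken as the protein-coding genes whose mouse symbol begins with Rpl or Rps and a digit, together with Rplp0, Rplp1, Rplp2 and Rpsa, leaving out symbols with -ps and the Rps6k kinases. This rule found 86 of the 50686 identifiers in the count tables, 52 of the large and 34 of the small subunit. By name 2 of the 86 are not ribosomal proteins proper: Rpl7l1 is an Rpl7-like protein and Rps19bp1 is a binding partner of Rps19. RNA was counted in 147 libraries of FACS-sorted mouse macrophages and monocytes. Of these, 110 belong to a refeeding experiment with 4 cohorts and 7 populations (microglia, Kupffer cells, monocytes, and macrophages of adipose tissue, colon, pancreatic islets and the peritoneum), taken after a 12 h fast or after such a fast and 2 h of refeeding. The other 37, from 8 cohorts, belong to a diet experiment in which microglia, peritoneal and islet macrophages were taken on normal diet, after 8 weeks of high-fat diet, or on that diet plus STZ (streptozotocin, which kills beta cells; the submitters state islet loss and high blood glucose) given at week 4. Strain, genotype, sex and age are not given in the labels. Neither is whether libraries of a group came from separate or pooled animals, so p-values measure only the spread between these libraries. In the refeeding experiment the islet libraries 1_2 and 5_6, fasted and refed, carry 2 replicate numbers in their titles. Whether they were pooled is not stated.

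Ribosomal proteins are made in step with each other because the subunits need nearly all of them in equal number. Their mRNAs are among the most abundant of a cell, and they carry a 5' terminal oligopyrimidine tract: transcription starts at a C that is followed by a run of C and T. Through that tract the kinase mTOR, which responds to nutrients and insulin, controls mostly how well these mRNAs are translated and how long they last. Counts of polyadenylated RNA show the amount of mRNA and not its translation.

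Start-site windows of 66 of the 86 genes were found in RefSeq (build GRCm38.p6). Each window below holds 10 bases before the annotated start and 20 from the start on, 5' to 3', and the capitals mark the run of C and T that begins at the annotated start. The first set shows genes with and without such a run among those whose values are described below. Rps6 is the substrate of the S6 kinases, Rps27 and Rpl38 are small proteins of the small and the large subunit, and Rplp2 and Rplp0 belong to the stalk that binds elongation factors.
Rps6: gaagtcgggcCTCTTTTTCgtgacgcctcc
Rps27: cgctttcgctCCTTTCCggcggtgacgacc
Rplp2: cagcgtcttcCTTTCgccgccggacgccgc
Rpl38: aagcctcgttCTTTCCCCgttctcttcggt
Rps24: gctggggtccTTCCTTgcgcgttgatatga
Rplp0: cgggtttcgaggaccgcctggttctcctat
Rps26: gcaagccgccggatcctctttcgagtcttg
On GRCm38.p6 the windows are chr4:86857348-86857377 on the minus strand for Rps6, chr3:90213629-90213658 on the minus strand for Rps27, chr7:141447641-141447670 on the plus strand for Rplp2, chr11:114668570-114668599 on the plus strand for Rpl38, chr14:24490668-24490697 on the plus strand for Rps24, chr5:115559457-115559486 on the plus strand for Rplp0 and chr10:128626487-128626516 on the minus strand for Rps26. A second pair shows Rpl22 and its paralog Rpl22l1, which are set against each other in microglia.
Rpl22: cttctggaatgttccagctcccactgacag
Rpl22l1: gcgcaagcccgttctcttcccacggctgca
These lie at chr4:152324426-152324455 and chr3:28805498-28805527, both on the plus strand. The Rpl22 window shown lies upstream of the annotated gene, which begins at chr4:152325742. A second Rpl22 window, at chr4:152325716-152325745, meets that gene start. All have a G at the annotated start. A C followed by at least 4 pyrimidines begins within 5 bases of it in Rpl22l1, and in neither Rpl22 window. Searched on the coding strand only, a C at the start followed by at least 4 pyrimidines was present in 14 of the 66 genes (21.2%), in 7 of 40 of the large and 7 of 26 of the small subunit. Over all 27025 genes with a window it was present in 3.01%, and in 0 of 69 mitochondrial ribosomal protein genes. Allowing the run to begin within 5 bases of the annotated start, the share was 45.5% of the members (30 genes), 21.2% of all genes and 24.6% of the mitochondrial set. In Rplp0, Rps26 and Rps24 no such run with a leading C begins exactly at the annotated start; in Rps24 and Rps26 1 begins within 5 bases of it.

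Total counts ran from 7.92 to 27.3 M per library in the refeeding and from 11.3 to 34.5 M in the diet experiment. Every refeeding library and the diet islet libraries began with 400 sorted cells, the diet microglia with 5000 and the diet peritoneal libraries with 100000, so levels are not compared between these diet populations by a test. Own markers (for example P2ry12 and Tmem119, Clec4f, Gata6, Ly6c2) were highest in microglia, Kupffer cells, peritoneal macrophages and monocytes; adipose, colonic and islet macrophages were checked with pan-macrophage markers only. Some groups carried RNA of other cells: summed markers of pancreatic acinar cells reached 201433 CPM (counts scaled to a common library size) in a fasted colonic library and those of plasma and B cells 92456 CPM. Among the refed microglia, libraries 5 and 6 carried neutrophil RNA, with acinar RNA in library 5 and plasma cell RNA in library 6. In bulk RNA, fewer cells of a type and less RNA per cell cannot be told apart. Sequence sharing bears on every member: 60 of the 86 have named pseudogenes (283 in all), 29 share over 50% of their 50-base words with other annotated transcripts, and 39 overlap exons of another gene. How reads mapping to several places and the strand were treated is not given in the sources used here, so counts of closely similar copies are uncertain.

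Levels per kilobase of annotated exon, averaged over the 7 fasted populations, spread widely among members. The stalk genes Rplp0 and Rplp1 were highest, at 588 and 575 CPM per kb. They were followed by Rps29 at 478, Rps27 at 417 and Rpl4 at 409 CPM per kb. At the low end Rpl23a had 9.82, Rpl13a 4.21, Rps27rt 2.64 and Rpl24 0.921 CPM per kb. In Rpl24 81.7% and in Rpl23a 85.7% of 50-base words are shared, and 46.99% and 62.3% of their exon bases lie in another gene's exons. Over all 86 genes the level and the shared part had a Spearman correlation of 0.12 across genes, which are not independent. The paralogs Rpl39l, Rpl3l and Rpl10l, which are used mainly in testis or muscle, had 0.323, 0.211 and 0.000975 CPM per kb, and Rpl10l was the 1 member that did not pass the filter on low counts among fasted libraries.

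Taken as one quantity, the members held a share of all counts that followed the population. In fasted microglia it was lowest, with 0.638% in the lowest, 0.880% in the median and 0.981% in the highest library. Kupffer cells held 0.969, 1.32 and 1.55%, colonic macrophages 1.04, 1.39 and 1.74%, and adipose tissue macrophages 1.42, 1.58 and 1.84%. Islet macrophages held 1.97, 2.09 and 2.21%, peritoneal macrophages 2.23, 2.46 and 2.77%, and monocytes 2.40, 2.65 and 2.79%. Microglia overlapped only the lowest Kupffer library, Kupffer, colonic and adipose libraries overlapped each other, and all islet, peritoneal and monocyte libraries lay above all libraries of the other 4 populations. In each of the 4 cohorts, microglia ranked last, and adipose, colonic and Kupffer libraries ranked above them in that order, with no Kupffer library in cohort 3. Monocytes ranked first in 3 cohorts and peritoneal macrophages in 1. In colonic libraries, with their acinar and plasma cell RNA, the median share was 1.58% instead of 1.39% when other-cell marker genes and mitochondrial genes were left out of the total.

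**Figure D1:**
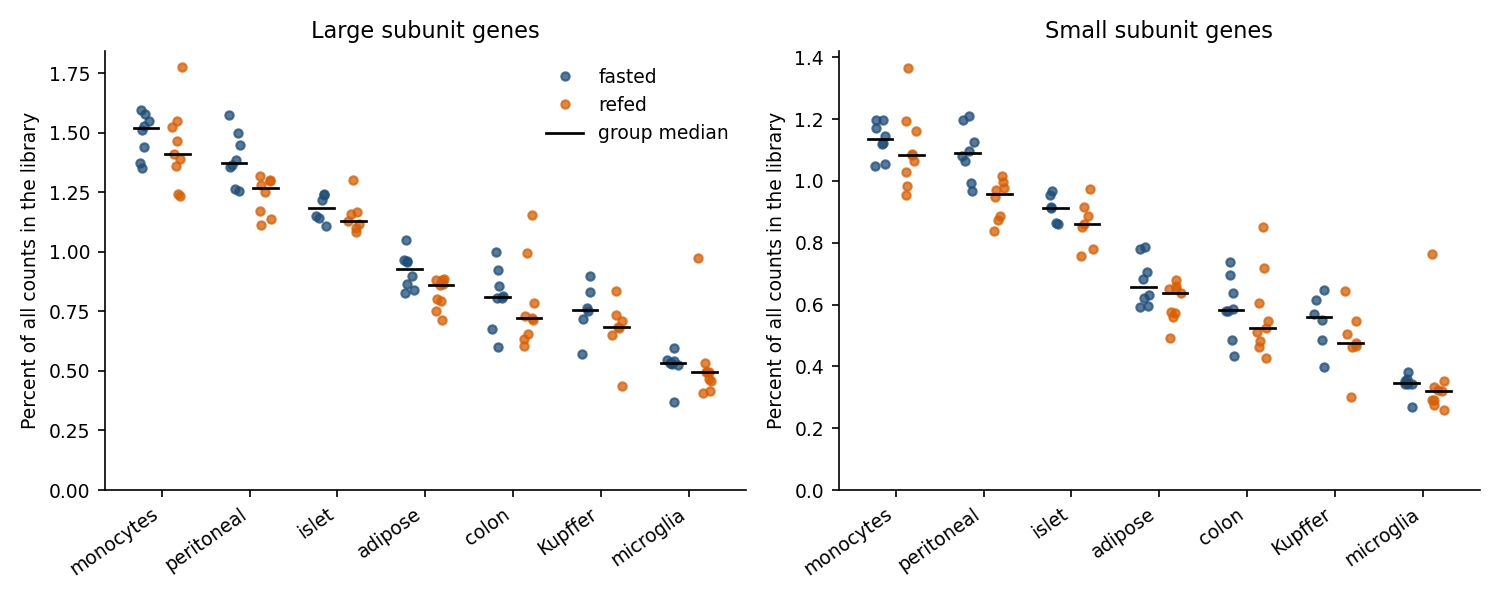
Share of all counts (percent, vertical axis) in large and small subunit genes in each library of the refeeding experiment, by population, fasted and refed; points are libraries and bars are medians. Microglia sit lowest and monocytes, peritoneal and islet macrophages highest, and fasted and refed libraries overlap in every population.

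Both subunits moved together. The ratio of large to small subunit counts had a median of 1.35 over the 110 refeeding libraries. Fasted microglia had the highest median ratio, with 1.38 in the lowest, 1.53 in the median and 1.59 in the highest library, and fasted peritoneal macrophages had 1.24, 1.28 and 1.31, so these groups did not overlap. Mitochondrial ribosomal protein genes, which serve a separate ribosome, did not share the order: their median share was 0.211% in fasted microglia, 0.152% in islet and 0.241% in peritoneal macrophages. Counts from the mitochondrial genome were also low in fasted microglia, with a median of 1.12% against 2.295 to 2.75% elsewhere, and their part in the member share was not tested.

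Fitted over all fasted libraries with edgeR's quasi-likelihood test, 81 of the 85 tested members differed among the 7 populations at a Benjamini-Hochberg adjusted p below 0.05, where 49.5% of all 16114 tested genes did. The exceptions were Rpl13a, Rps27rt, Rps19bp1 and Rpl24. Rpl13a, Rps27rt and Rpl24 are 3 of the 4 lowest members per kb among those above the testis and muscle copies. Microglia were the lowest population in 77 of 85 members, and peritoneal macrophages were the highest in 51, islet macrophages in 17 and monocytes in 14. The range of population means had a median of 1.87 on the log2 CPM scale.

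Against the mean of the other 6 populations, 77 members were lower and 2 higher in microglia, with a median log2 difference of -1.37; all tested genes had 12.3% lower, 15.3% higher and a median of +0.16. The large subunit had a median of -1.27 and the small subunit -1.45. In Kupffer cells 49 members were lower and 1 higher (background 2.46% and 10.2%), with a median of -0.42 against +0.15 for all genes. The 1 higher member was Rpl39l, with 58 counts from 2 of 6 libraries and 0 in the other 4. In islet macrophages 71 were higher and 0 lower (background 9.15% and 4.74%), with a median of +0.65 against -0.19 for all genes. In monocytes 65 were higher and 0 lower (background 10.5% and 8.57%), with a median of +0.56. In peritoneal macrophages 78 were higher and 0 lower (background 12.2% and 8.63%), with a median of +0.74. Adipose tissue and colonic macrophages lay near the middle, each with a median of -0.07. In adipose tissue macrophages only Rpsa was called, lower by a log2 difference of -0.34 (SE 0.12, adjusted p = 0.049, background 3.44% lower), and it was not called without fasted library 5. In colonic macrophages Rpl41 was higher by 0.38 (adjusted p = 0.0034, background 15.4%) and Rpl10 lower by -0.31 (adjusted p = 0.031, background 2.72%). Because 1 population's members enter the mean that the others are set against, these 7 contrasts are not independent.

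The counts for the middle and upper populations depend on the filter. Without a filter on low counts, edgeR called 28 members in islet macrophages, 26 in monocytes and 3 in Kupffer cells, 75 in microglia and 59 in peritoneal macrophages, and 0 in adipose tissue and 0 in colonic macrophages, so the calls of Rpsa, Rpl41 and Rpl10 there were lost. With library totals in place of TMM scaling, 23 members instead of 2 were called in colonic macrophages. The shares of all genes called in these single contrasts under these settings are not given here. In the test of any difference among the populations, 76 of 86 members and 38.1% of 29891 genes were called without the filter. With library totals, 81 of 85 members and 51.8% of 16114 genes were. These changes in number are therefore not results about the members alone.

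**Figure D2:**
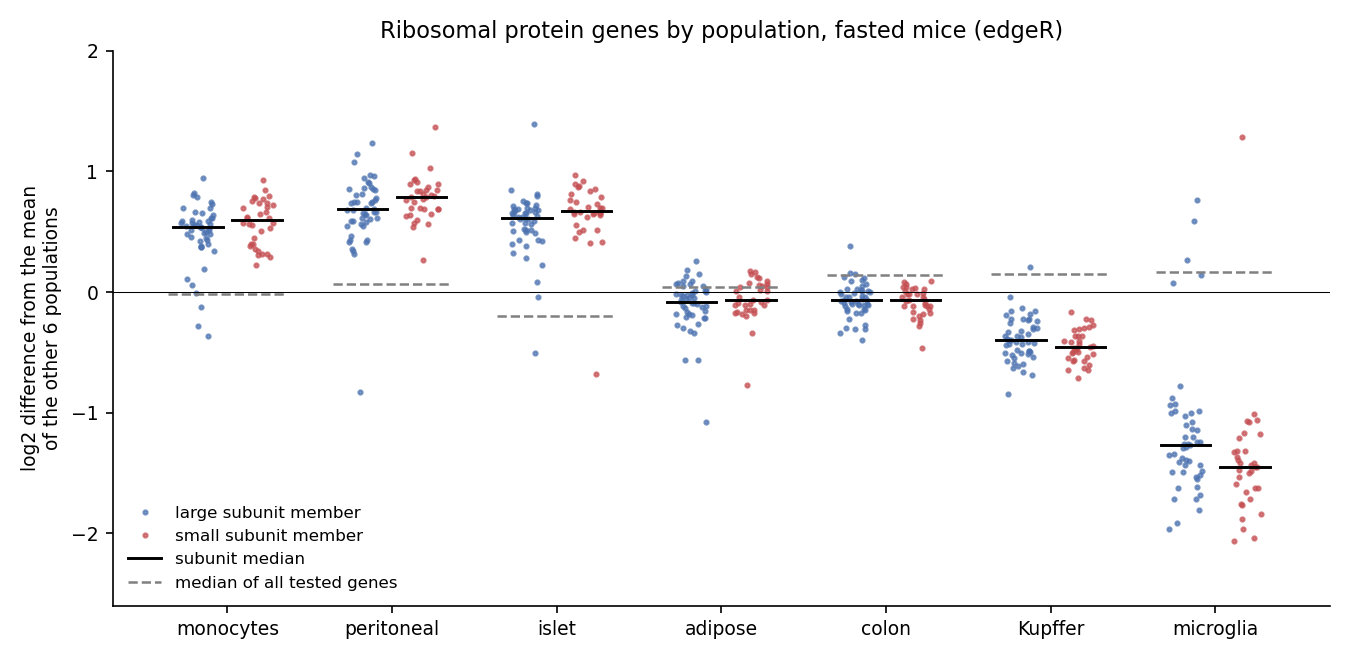
Log2 difference of each member (1 point per gene) in each fasted population against the mean of the other 6, with large and small subunit drawn apart and their medians as lines. Rpl39l, Rpl3l and Rpl10l, with 0 counts in whole groups, are not drawn. Dashed lines are medians of all tested genes. Microglia lie lowest with a median of -1.37, and peritoneal macrophages highest with +0.74.

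The member with the widest range was Rps19, a small subunit protein known for its mutation in Diamond-Blackfan anemia. Its levels in fasted microglia were 60.4 CPM in the lowest, 67.2 in the median and 96.1 in the highest library. In Kupffer cells they were 102.3, 178 and 203 CPM, and in colonic and adipose tissue macrophages the medians were 235 and 240 CPM. In peritoneal macrophages they were 449, 525 and 657 CPM. No microglia library overlapped a library of another population, and no peritoneal library did either. Rps19 was lower in microglia by a log2 difference of -2.06 (SE 0.11, edgeR adjusted p = 8.8e-21) and higher in peritoneal macrophages by 1.37 (SE 0.09, adjusted p = 4.3e-18). Of its 21 population pairs, 19 were called; the neighbours monocyte and islet, and adipose and colon, were not.

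Rplp0, the core of the ribosomal stalk, followed another order at the top. Monocytes had 1202 CPM in the lowest, 1602 in the median and 1744 in the highest fasted library. Islet macrophages had 962, 1334 and 1532, and peritoneal macrophages 1039, 1213 and 1344 CPM. Microglia had 244, 330 and 397 CPM, below every library of the other populations. Its log2 difference was -1.72 in microglia (SE 0.10, edgeR adjusted p = 4.1e-19) and 0.95 in monocytes (SE 0.08, adjusted p = 7.3e-13). Between monocytes and peritoneal macrophages Rplp0 was higher in monocytes by 0.34 (SE 0.12, adjusted p = 0.036).

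The other members with the 10 widest ranges were Rpl36a, Rpl23, Rpl32, Rps28, Rps20, Rpl38, Rps24 and Rps26, with log2 differences in microglia from -1.72 to -1.96, all called. Rpl32 had medians of 88.5 CPM in microglia and 494 CPM in peritoneal macrophages, with no overlap between them (at most 135 and at least 379 CPM). Rps20 was highest in islet macrophages, with 191, 232 and 268.8 CPM. In microglia Rps20 had 30.6, 43.3 and 58.5 CPM, and again no library overlapped. For Rpl36a and Rpl23 the 1 step between neighbours in the order that passed the test was that from Kupffer cells to microglia.

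Among members with known roles beside assembly, Rpsa, the laminin receptor protein of the small subunit, had a difference of -1.63 in microglia (SE 0.13) and 0.93 in both monocytes and peritoneal macrophages. Rps6 differed by -1.39 in microglia (SE 0.12) and by 0.69 to 0.73 in peritoneal macrophages, monocytes and islet macrophages. Rps27a, which is made as a fusion with ubiquitin, differed by -1.50, and Rps3, which also acts in DNA repair, by -1.21. Rpl5 and Rpl11, which bind Mdm2 when ribosome assembly fails, differed by -1.07 and -1.29. All of these passed edgeR's adjusted p in microglia. Rplp1 was lower in microglia by -0.94 and higher in peritoneal macrophages by 0.74, while in monocytes its difference was -0.01 (adjusted p = 1.0), a sign that turned to +0.18 with library totals.

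Pairs of populations were compared in the same fit. Adipose tissue and colonic macrophages had 0 of 85 members called between them by edgeR (11.3% of all genes), with a median difference of 0.01. Kupffer cells were lower than adipose tissue macrophages in 18 members (background 3.92%) and lower than colonic macrophages in 9 (background 5.19%). At the top, islet and peritoneal macrophages differed in 5 members (20.3% of all genes), monocytes and islet macrophages in 7 (17.4%), and monocytes and peritoneal macrophages in 15 (14.7%), so the share of members was below that of all genes in the first 2 of these pairs and near it in the last. Of those 15, 3 were higher in monocytes, Rpl18 and Rplp0 among them, and 12 were higher in peritoneal macrophages. Rpl12 had the second largest of these 12 differences, -1.29 (SE 0.21, adjusted p = 1.0e-05), after Rpl39l, which has 0 counts in monocytes. Rpl12 was named after its values were seen: fasted monocytes had 34.97, 59.2 and 84.0 CPM and peritoneal macrophages 113.3, 144 and 181 CPM, without overlap. Microglia differed from each other population in 69 to 79 members, where 17.3 to 25.4% of all genes differed.

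A few members did not follow the rest. Over the 14 population and treatment groups, members had a median Pearson correlation of 0.979 with the mean of all members, and 75 of 85 were above 0.9, while other tested genes had a median of -0.06 and 95 of 15999 above 0.9. This describes levels whose groups share populations and cohorts. The lowest members were Rps19bp1 (-0.08), Rpl7l1 (0.18), Rpl39l (0.24), Rpl13a (0.26), Rpl3l (0.27), Rpl24 (0.33), Rpl22l1 (0.35) and Rpl10a (0.49). Rpl12 and Rpl36al were at 0.82. Of genes outside the rule, the most alike were Rpl9-ps6 (0.997), which is annotated as protein-coding although its symbol marks a pseudogene, the elongation factor Eef2 (0.988), the cytochrome c oxidase subunit Cox4i1 (0.987) and the processed pseudogenes Gm8186 (0.986) and Gm3511 (0.985).

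Rpl22l1, a paralog of the RNA-binding protein Rpl22, was one of the 2 members higher in microglia. Its levels there were 10.54 CPM in the lowest, 50.6 in the median and 109.4 in the highest library, overlapping every other population, whose medians lay between 22.3 and 38.9 CPM. Its log2 difference was 0.76 (SE 0.25, edgeR adjusted p = 0.017). Rpl22 itself was lower in microglia, with 12.1, 26.5 and 84.0 CPM, by -0.99 (SE 0.23, adjusted p = 0.00074). In peritoneal macrophages Rpl22 had 88.1, 115.2 and 130 CPM. Of the 50-base words of Rpl22l1, 58.9% are shared with other transcripts, and of those of Rpl22 5.16%, so counts of Rpl22l1 are less certain. As a part of the counts of both genes, not corrected for length and so compared only between populations, Rpl22l1 made up a median of 60.5% in fasted microglia (11.1 to 85.3%). It made up 39.7% in colonic, 32.2% in adipose tissue, 26.5% in islet and 25.1% in peritoneal macrophages, 27.9% in Kupffer cells and 23.1% in monocytes. In refed microglia the median was 35.8% (18.3 to 64.8%), below the 38.98% of refed colonic macrophages (19.5 to 63.9%) and close to the 34.01% of refed adipose tissue macrophages, so microglia did not stand apart among refed libraries. In the diet experiment microglia lay above the other populations: 69.4% on normal diet, 73.6% on high-fat diet and 77.1% with STZ, with no library below 64.7%, against medians of 33.2 to 36.9% in peritoneal and 26.7 to 30.6% in islet macrophages, no library of which was above 50.2%. The other higher member, Rps19bp1, had 4.89, 22.97 and 36.8 CPM in microglia and a difference of 1.28 (SE 0.49, adjusted p = 0.043).

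Rpl10a, a large subunit protein, was named after its values were seen. Unlike most members it was not called in microglia, with a log2 difference of 0.07 (SE 0.12, edgeR adjusted p = 0.73). Its levels were 69.8, 130 and 153 CPM in microglia, 51.7, 84.4 and 101.2 in Kupffer cells and 138, 169 and 217 in peritoneal macrophages. It was lower in Kupffer cells by -0.69 (SE 0.14, adjusted p = 0.00026). Between microglia and Kupffer cells Rpl10a was higher in microglia by 0.65 (SE 0.17, adjusted p = 0.0035), as was Rpl22l1 by 1.19 (adjusted p = 0.022); the other 67 called members were higher in Kupffer cells. Of the 50-base words of Rpl10a, 62.6% are shared with other transcripts.

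Other paralog pairs also differed between populations. Rpl7l1 made up a median of 35.9% of its counts with Rpl7 in fasted microglia (11.3 to 51.7%), and the medians elsewhere lay between 10.4 and 23.98%. There Rpl7 was lower by -1.28 and Rpl7l1 was not called (0.14, adjusted p = 0.74). In peritoneal macrophages Rpl7l1 was higher by 0.90 (SE 0.21, adjusted p = 0.0010). Rpl36al made up from 37.1% in islet macrophages to 56.7% in microglia of its counts with Rpl36a, and Rps27l from 12.8% in monocytes to 17.4% in peritoneal macrophages of its counts with Rps27. Of the 50-base words of Rpl36a 85.5% are shared with other transcripts, and of those of Rpl36al 22.05%. Rpl39l had 169 counts in the 8 fasted peritoneal libraries, 5 of them with counts, 58 in Kupffer cells and 0 in the other 5 populations. Rpl3l had 234 counts in monocytes, 47 in colonic macrophages, 34 in peritoneal macrophages, 8 in Kupffer cells, 6 in microglia and 0 in adipose tissue and islet macrophages. A count of 0 allows up to 3 counts in a group, for counting error only. Rpl10l had 1 count in all fasted libraries. In refed microglia the Rpl7l1 median was 41.4%, against 12.2 to 28.65% elsewhere. In diet microglia it was 41.4 to 54.5%, against 19.7 to 24.5% elsewhere. Rps4l, a copy outside the rule, made up a median of 9.50% of its counts with Rps4x in fasted microglia, against 0.803 to 3.27% elsewhere. In refed microglia it was 7.75% against 1.27 to 4.82%, and in diet microglia 10.2 to 12.5% against 0 to 1.66%. Ranges of libraries overlapped, except for Rps4l in the diet experiment.

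**Figure D3:**
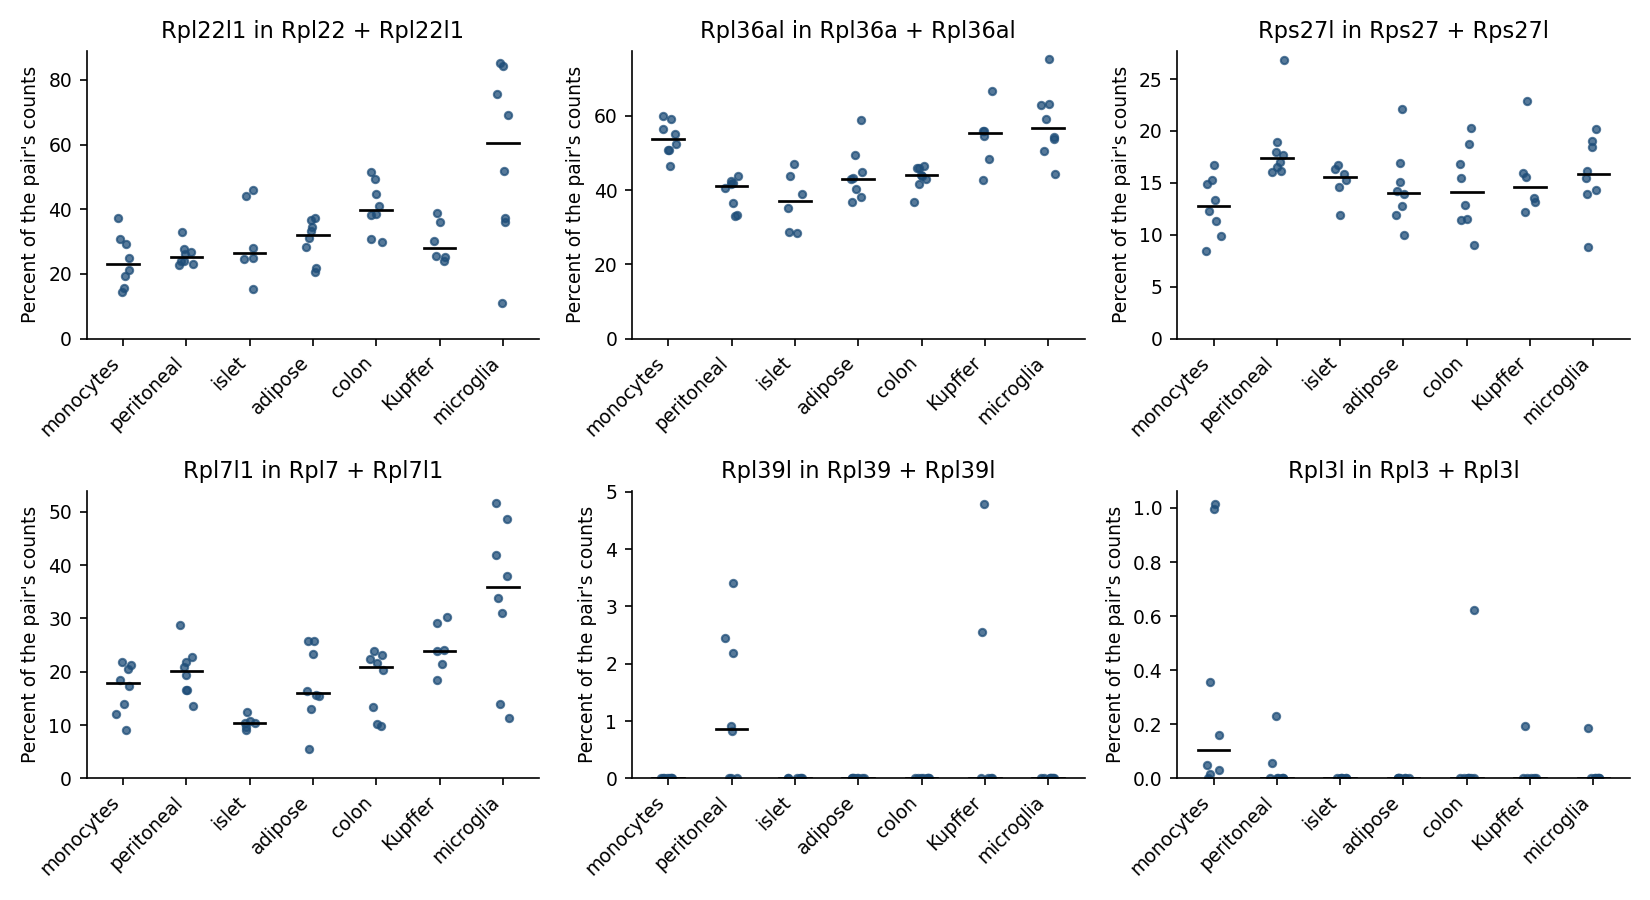
Percent of a gene pair's counts that came from the named paralog in each fasted library, by population; points are libraries and bars are medians. Rpl22l1 and Rpl7l1 have their highest medians in microglia (60.5 and 35.9%), while Rpl39l and Rpl3l are at or near 0 in most libraries.

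Other genes of translation followed the members in part. Of 8 genes tied to the ribosome, 6 were lower and 0 higher in microglia (background 12.3% and 15.3%), with a median of -1.23. They include Fau, the source of the small subunit protein eS30 (-1.42, SE 0.11, edgeR adjusted p = 9.4e-16), the scaffold Rack1 (-1.51) and the growth-related protein Tpt1 (-1.49). Of 33 initiation and elongation factors 19 were lower and 1 higher in microglia (median -0.51); Eef1a1, which brings aminoacyl-tRNA to the ribosome, had -1.19 (SE 0.09) and Eef2, which moves it along the mRNA, -1.19 (SE 0.12), both called. In islet macrophages 6 of 8 and 12 of 33 were higher (background 9.15%), and in peritoneal macrophages 5 of 8 and 14 of 33 (background 12.2%), with 2 of 33 lower (background 8.63%). Of 18 regulators of mTOR and of oligopyrimidine mRNAs, 4 were higher and 1 lower in microglia (background 15.3% and 12.3%). In edgeR's test of any difference among the fasted populations, 9 of these 18 (50%) were called, where 49.46% of all tested genes were. The list as a whole thus stayed near the background. Only single genes of this list are named for peritoneal macrophages, and the rest are not described there. The mTOR inhibitor Ddit4 was lower in them (-4.24, SE 0.98, edgeR adjusted p = 0.00081, background 8.63% lower). The translation repressor Eif4ebp1 was higher (1.00, SE 0.25, edgeR adjusted p = 0.0023, background 12.2% higher). These single genes do not stand for the list, and a link between them and the member levels was not tested. Of 77 mitochondrial ribosomal protein genes, 6 were lower and 1 higher in microglia (background 12.3% and 15.3%), 9 were higher in peritoneal macrophages (background 12.2%) and 2 were lower in islet macrophages (background 4.74%), shares near or below those of all genes.

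Refeeding for 2 h changed no member past the threshold in any of the 7 populations by edgeR's quasi-likelihood test. In peritoneal macrophages 0 of 82 were called, with 0.432% of all 11331 genes called. Their median log2 difference was -0.19 (large -0.18, small -0.21), and 79 of 82 were below 0 where 5706 of 11331 genes were. At an unadjusted p below 0.05, 36 were lower and 1 higher, against a background of 4.92% lower. DESeq2 called 16 members, with 2.44% of its tested genes called. All 4 cohorts had a median below 0, from -0.35 in cohort 2 to -0.13 in cohort 4. This shift was known from earlier results of these data and is a description.

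Rpl17, a large subunit protein near the exit tunnel, had the smallest adjusted p among members in peritoneal macrophages. Fasted libraries had 152 CPM in the lowest, 163 in the median and 190 in the highest, and refed libraries 98.7, 133 and 145. The groups did not overlap, and the log2 difference was -0.40 (SE 0.10, edgeR adjusted p = 0.11). Rps20 had 166, 217 and 260 CPM fasted and 129, 166 and 190 refed, with overlapping groups and a difference of -0.40 (SE 0.11, adjusted p = 0.13). Rpl22 had 88.1, 115.2 and 130 CPM fasted and 73.8, 81.3 and 97.7 refed, a difference of -0.45 (SE 0.13, adjusted p = 0.15). At the other end Rps19bp1 had 0.77 (SE 0.36, adjusted p = 0.45) and Rpl7l1 0.30 (SE 0.16, adjusted p = 0.54). Of the tested lists, the mitochondrial ribosomal proteins had a median of 0.10 there, with 8 higher and 0 lower at an unadjusted p below 0.05 and 0 called.

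In the other 6 populations 0 members and 0 of all tested genes (0%) were called by edgeR. Kupffer cells had a median of -0.14 with 73 of 82 members below 0 and 1 at an unadjusted p below 0.05 (background 3.27%), and -0.06 without refed library 8 and -0.21 without the 2 refed libraries that the labels describe as fasted only. Adipose tissue macrophages had -0.14 with 68 of 83 below 0 and 9 at an unadjusted p below 0.05 (8 lower; background 5.16% in all and 1.97% lower). DESeq2 called 4 members there, Rplp0, Rpl4 and Rps27a among them, with 3.19% of its tested genes. Colonic macrophages had -0.09 with 67 of 82 below 0, monocytes -0.06 with 64 of 84, and islet macrophages -0.02 with 54 of 83. At an unadjusted p below 0.05 they had 0, 1 and 2 members (background 2.61%, 2.65% and 2.39%). DESeq2 called 0 in each and in Kupffer cells. It called 1.6% of its tested genes in colonic and 2.61% in islet macrophages, so few members would be called at those shares. Within cohorts the medians changed sign in adipose tissue macrophages, monocytes, microglia, colonic and islet macrophages.

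Refed microglia were the 1 population with a median above 0, +0.06. Without refed libraries 5 and 6, which carried RNA of other cells and are the whole refed arm of cohort 3, it was -0.11. Within cohorts 1 to 4 the medians were -0.08, -0.31, 0.66 and 0.08. With all libraries 31 of 81 members were below 0 and 1 had an unadjusted p below 0.05 (background 2.52%), while DESeq2 called 1, Rpl24 (6.52% of its tested genes). The member share was 0.676, 0.817 and 1.74% in refed microglia, and the highest of these was library 6, while library 5 had 0.819%. Over the marker lists, neutrophil markers had counts for 3 of 6 genes and summed to 0 to 0.685 CPM in fasted microglia, with S100a8, Ltf and Camp at 0. In refed microglia all 6 had counts and the sum reached 1263 CPM. Plasma and B cell markers (8 of 8 in both) reached 4489 CPM refed against 228 fasted, and acinar markers (10 of 11 in both) 965 against 50.6 CPM. Their part in the member values was not tested.

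Whether the refeeding difference of a member depended on the population was tested by an interaction term over all 110 libraries. None of 85 members passed edgeR's adjusted p, with 5 of 18640 genes (0.0268%) called. At an unadjusted p below 0.05 there was 1 of 85 members, Rpl23 (edgeR adjusted p = 0.60), against 1396 of all 18640 genes. The share of members was thus below that of all genes. DESeq2 was not run for this term.

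**Figure D4:**
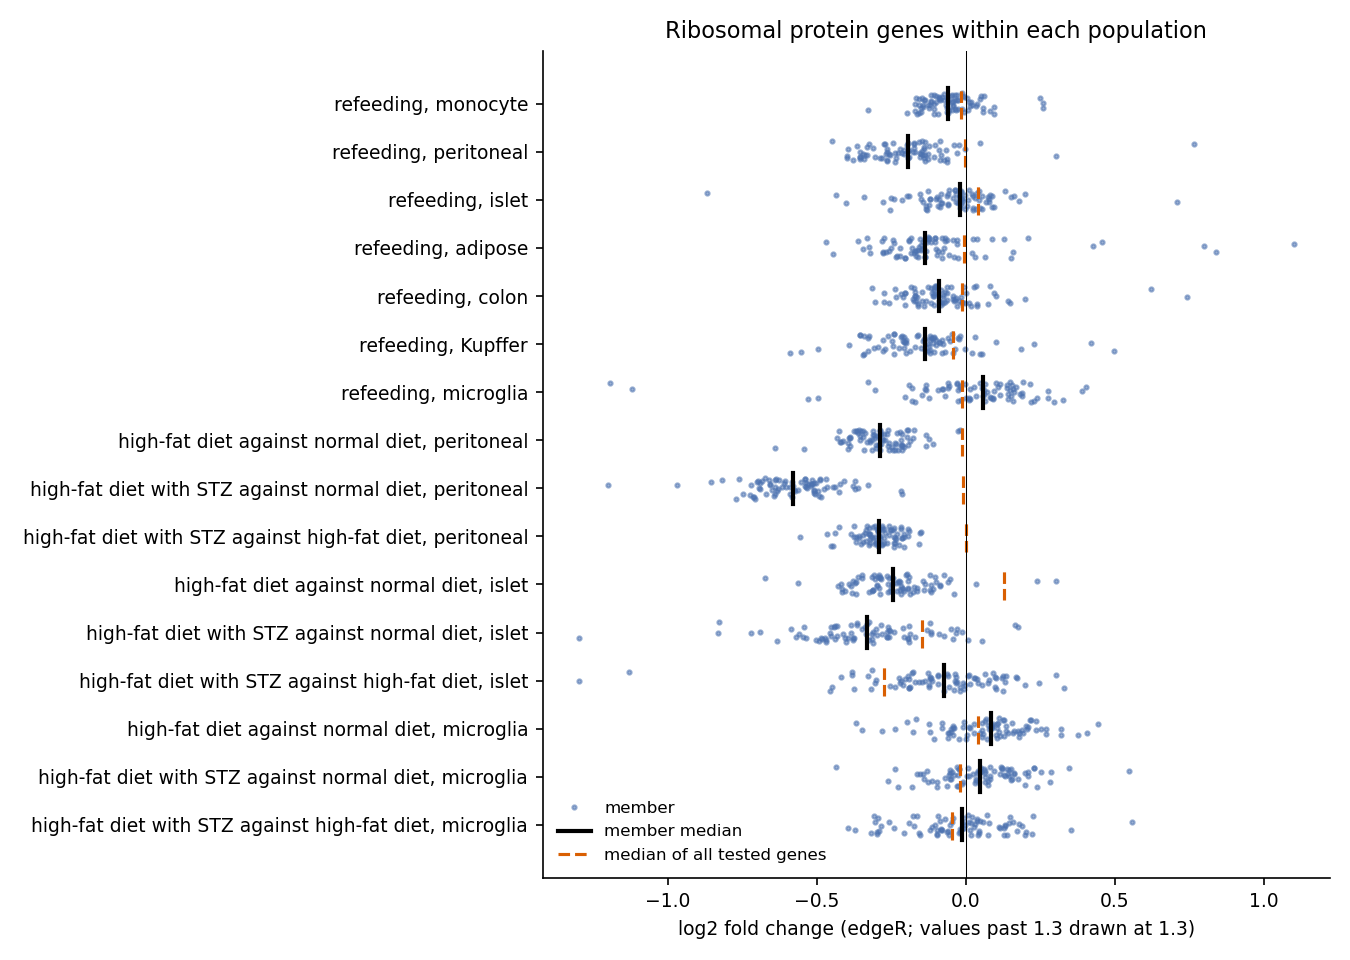
Log2 difference of each member (1 point per gene) for refeeding in 7 populations and for the 3 diet contrasts in 3 populations, with the median over all members as a line and that of all tested genes dashed. Values past 1.3 are set at the edge, and Rpl39l, Rpl3l and Rpl10l are not drawn. Peritoneal macrophages with STZ against normal diet lie furthest below 0, with a median of -0.58.

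In the diet experiment no member passed edgeR's adjusted p in any of the 9 contrasts. The largest median shift was in peritoneal macrophages of mice with high-fat diet and STZ against normal diet. All 82 tested members were below 0 with a median of -0.58 (large -0.56, small -0.59), while all genes had a median of -0.01. At an unadjusted p below 0.05, 69 of 82 were lower, against a background of 9.78% lower, and 1.29% of all 13225 genes were called. DESeq2 called 19 members (3.53% of its tested genes), and edgeR called 22 without the filter on low counts. The share of all genes that edgeR called without that filter is not given here. High-fat diet alone had a median of -0.29, and STZ against high-fat diet -0.29, each with 82 of 82 below 0. Each had 0 at an unadjusted p below 0.05 and 0 called by DESeq2 (0% of genes called by edgeR in each). DESeq2's share of all genes is not given for high-fat diet alone or for STZ against high-fat diet. These 3 contrasts share groups, so they are not independent.

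Cohort 3 carried much of that shift. The member share of counts in peritoneal libraries on normal diet was 1.90, 2.74, 3.26, 2.28 and 1.97% in cohorts 1 to 5. With STZ it was 1.73, 1.78, 1.55, 2.36 and 1.66% in the same cohorts, and with high-fat diet alone 1.87, 2.06, 2.45 and 1.79% in cohorts 1, 2, 4 and 5. The STZ library was the lower of the pair in 4 of 5 cohorts, and all 3 groups overlapped. Member by member, the median log2 difference of STZ against normal diet was -0.08, -0.80, -1.65, 0.03 and -0.39 in cohorts 1 to 5. High-fat diet against normal diet had 0.07, -0.54, 0.10 and -0.17 in cohorts 1, 2, 4 and 5, and STZ against high-fat diet -0.14, -0.22, -0.08 and -0.21. Because cohort 3 has no high-fat library, its pair of normal and STZ libraries also entered the fitted high-fat values. Without cohort 3, left out after the data were seen, the medians were -0.30 for STZ against normal diet, -0.14 for high-fat against normal diet and -0.16 for STZ against high-fat diet, and edgeR called 0 members in each.

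**Figure D5:**
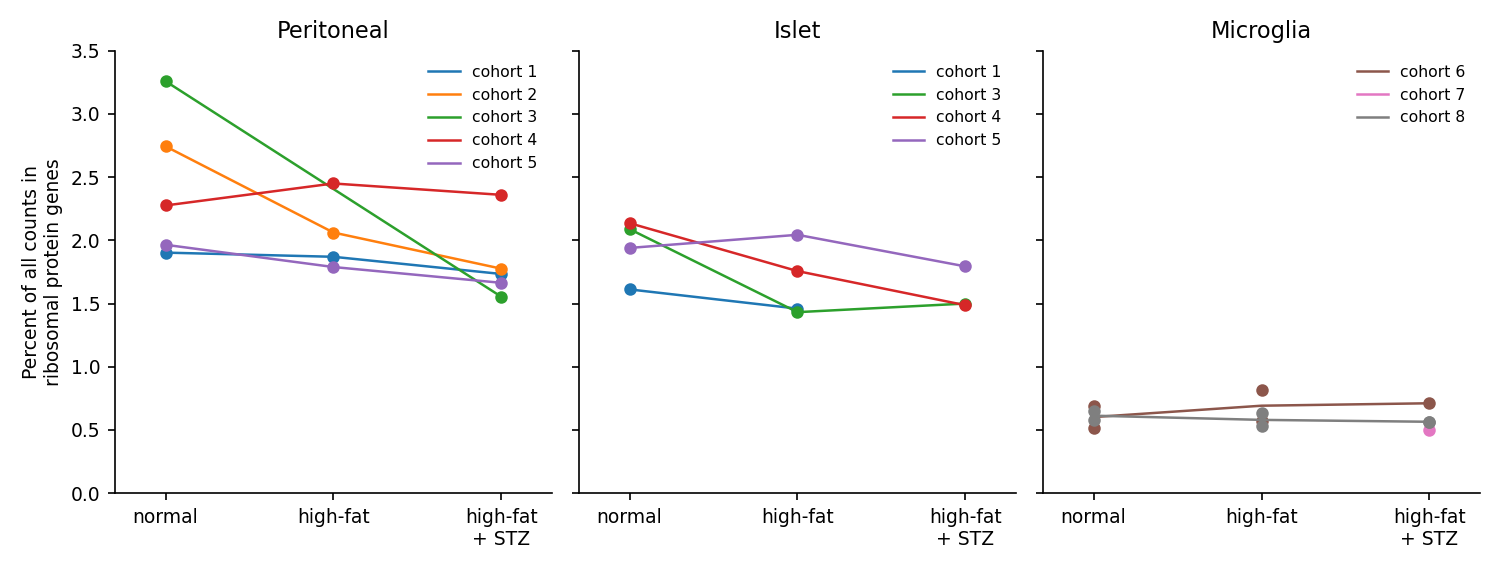
Share of all counts (percent, vertical axis) in the ribosomal protein genes in each library of the diet experiment, by population and diet group; points are libraries and lines join the means of a cohort and pass over a group it lacks. In peritoneal macrophages cohort 3 falls from 3.26% on normal diet to 1.55% with STZ and has no high-fat library, while the other cohorts differ less.

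Rps27, a small subunit protein, had the smallest adjusted p for STZ against normal diet in peritoneal macrophages. On normal diet its levels were 294, 766, 951, 557 and 516 CPM in cohorts 1 to 5. With STZ they were 262, 393, 204, 471 and 223 CPM, lower in each cohort, although the groups overlapped. With high-fat diet alone they were 289, 445, 558 and 336 CPM in cohorts 1, 2, 4 and 5. The log2 difference of STZ against normal diet was -0.97 (SE 0.25, edgeR adjusted p = 0.080). Rps28 had 143, 306, 408, 252 and 177 CPM on normal diet and 124, 143, 105.6, 217 and 104.3 CPM with STZ, lower in each cohort, with a difference of -0.86 (SE 0.23, adjusted p = 0.080). The smallest differences were those of Rps2 at -0.21 (SE 0.35), Rpl7l1 at -0.22 (SE 0.15) and Rpl13a at -0.33 (SE 0.22). Without cohort 3 the value of Rps2 was 0.18.

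Other values moved with the STZ peritoneal group. Monocyte markers (5 of 5 with counts in each group) summed to 151 to 268 CPM on normal diet, 147 to 227 on high-fat diet and 400 to 670 CPM with STZ, without overlap. The peritoneal macrophage markers (5 of 5) summed to 9541 to 14196, 11780 to 13177 and 5424 to 11026 CPM. Their part in the member values was not tested. Mitochondrial ribosomal protein genes had 74 of 77 below 0 and a median of -0.27 for STZ against normal diet, with 14 lower at an unadjusted p below 0.05 and 0 called, while initiation and elongation factors had -0.12 and ribosome-tied genes -0.32, again with 0 called. Rps27l made up 19.4, 22.1 and 28.95% (medians) of its counts with Rps27 on normal diet, high-fat diet and STZ in peritoneal macrophages, and 23.6, 24.3 and 29.2% in islet macrophages. The peritoneal libraries with STZ (18.5 to 33.7%) overlapped those on normal diet (16.7 to 21.8%) and on high-fat diet (20.9 to 22.6%), and in microglia the medians were 16.6, 13.1 and 19.04%. The islet libraries with STZ (28.9, 29.2 and 30.6%) lay above the other islet libraries of the diet experiment.

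In islet macrophages the medians of all genes also differed from 0, by +0.13 for high-fat against normal diet, -0.15 for STZ against normal diet and -0.28 for STZ against high-fat diet. The members had medians of -0.24 (80 of 83 below 0), -0.33 (79 of 83) and -0.07 (56 of 83), so they lay below the median of all genes in the contrasts with normal diet and above it for STZ against high-fat diet. At an unadjusted p below 0.05 there were 5, 15 and 3 lower members, against backgrounds of 0.669%, 3.02% and 3.45% lower (2.36%, 5.68% and 4.97% in either direction), and edgeR called 0%, 0.0242% and 0% of all genes. DESeq2 called 0, 5 and 1 members (8.59%, 9.22% and 8.75% of its tested genes). Rps24 had 221, 314, 321 and 293 CPM on normal diet in cohorts 1, 3, 4 and 5, and 191, 180, 205 and 219 CPM on high-fat diet. The groups did not overlap, and the difference was -0.56 (SE 0.21, edgeR adjusted p = 1.0). Rps15 had 148, 162, 159 and 171 CPM on normal diet and 113.6, 68.7 and 115.8 CPM with STZ in cohorts 3, 4 and 5, again without overlap, a difference of -0.83 (SE 0.28, adjusted p = 0.80).

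Microglia had fitted medians near 0 in the diet contrasts: +0.08 for high-fat against normal diet, +0.05 for STZ against normal diet and -0.01 for STZ against high-fat diet. The cohorts went opposite ways. In cohort 6 the median log2 differences were 0.26, 0.40 and 0.05 for these contrasts, and in cohort 8 they were -0.10, -0.11 and -0.03. Of 82 tested members 0 had an unadjusted p below 0.05 in any of the 3 contrasts, and both edgeR (0% of all genes) and DESeq2 called 0. DESeq2's share of all genes is not given for microglia. The members' share of counts was 0.515, 0.613 and 0.689% on normal diet, 0.529, 0.600 and 0.815% on high-fat diet and 0.4999, 0.565 and 0.711% with STZ. All groups overlapped. As in the refeeding experiment these shares lay below all islet libraries (1.43 to 2.14%) and all peritoneal libraries (1.55 to 3.26%), and the ratio of large to small subunit counts, 1.63 in the median on normal diet, lay above that of islet (1.33) and peritoneal macrophages (1.29). Starting cell numbers and cohorts differ between these populations and cannot be told apart from them here.

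An interaction term over all 37 libraries asked whether diet and STZ differences depended on the population. None of 84 members passed edgeR's adjusted p, with 0.992% of 17230 genes called. At an unadjusted p below 0.05 there were 3 of 84: Rps27, Rps7 and Rpl34, with edgeR adjusted p of 0.38, 0.40 and 0.41. Of all 17230 genes 2071 were below it, so the share of members was below that of all genes. The larger median in STZ peritoneal macrophages is thus not shown to differ from that of islet macrophages or microglia for any single member. DESeq2 was not run for this term.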

How the data were processed

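RNA of FACS-sorted macrophages and monocytes was isolated with a PicoPure kit, treated with DNase I and sequenced as polyA RNA by Smart-seq2, without molecular identifiers, per the labels' protocols. The deposited tables hold raw read counts per Ensembl gene for 147 libraries; Trimmomatic 0.36, STAR 2.5.1a, featureCounts and the mm10 build are named in the submitters' processing notes. For the annotation release, the strand setting and reads with several matches, the choice is not given in the sources used here. Together they hold 50686 identifiers, of which 50462 matched a symbol; the rest held 0.00721% of counts. No 2 libraries were identical.

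Counts were fitted with edgeR 4.0.16 (R 4.3.3, limma 3.58.1), TMM scaling, its filter on low counts and its quasi-likelihood test, with the labelled cohort as a term and Benjamini-Hochberg adjustment over all tested genes at 0.05. CPM use TMM scaling within each experiment, and likeness used log2(CPM + 1). Microglia cohort 7 has 1 library, which the cohort term takes up. In the refeeding interaction fit, the dispersion trend was estimated on every 10th gene. DESeq2 1.42.0, other scalings, no filter, the replicate block and left-out libraries were alternatives. Tables and figures were made with Python 3.11.15.

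The members and lists were chosen with earlier results of these data known. The text names the called members with the smallest adjusted p (at most 10) and the 3 highest and 3 lowest per comparison, the 10 of widest range between fasted populations, role and paralog lists, and the 5 most alike genes. Refed libraries were grouped by their treatment label, although 4 of them (islet 1_2 and 3, Kupffer 1 and 2) are described as fasted only. On simulated data, log2 changes of 0.5, 1 and 2 were recovered in 2.17%, 29.8% and 60.4% of cases for refeeding in peritoneal macrophages (10716 genes) and in 6.12%, 46.9% and 86% for STZ against normal diet there (12886 genes). For fasted peritoneal macrophages against the other 6 populations they were 5.13%, 15.9% and 55.3% (13451 genes). The changed genes were drawn at random from all genes passing the filter, so these rates are not those of the members. Within a population of the refeeding experiment, shared replicate numbers did not pair fasted with refed libraries. Whether same-numbered libraries of different populations came from the same animal was not tested. The fits over populations hold cohort terms and no term for such a pairing. In the islet and peritoneal diet libraries the number is the labelled cohort and is in the fit. Values of a few genes are not reported here.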

Additional observations from a re-analysis of the deposited data

Results flagged for a closer look

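In 13 of 206 groups of values (6.311%) a single library lay further from the rest than Dixon's 95% critical value, where chance alone passes about 1 in 20 groups. Among fasted microglia, library 7 had the lowest share of counts in large subunit genes (0.3704%) and in small subunit genes (0.2677%), and the highest Rpl13a level (21.58 CPM). Among refed microglia, library 6 had the highest large (0.9755%) and small subunit shares (0.7648%) and the lowest large to small ratio (1.276); it is one of the libraries with RNA of other cells.

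Refed islet library 9 had the highest large subunit share (1.301%), and peritoneal library 4 on high-fat diet with STZ the highest of its group (1.319%). Fasted Kupffer library 8 had the highest Rpl36a (106.04 CPM), Rpl5 (163.1 CPM) and Rps27a (309.5 CPM) of its group. Rps28 was highest in fasted islet library 3 (248.8 CPM), and Rps20 was lowest in fasted adipose library 1 (88.57 CPM).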

How the results depend on the processing

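Of the alternatives for counts of members and medians, 553 stayed within 1.5 times the count or within the spread of the median, and 20 moved. For single members, 2335 kept direction and side of the threshold, 63 lost and 18 gained significance, and 32 turned sign. Without a filter on low counts the members called numbered 0 in adipose tissue macrophages, 0 in colonic macrophages, 28 in islet macrophages, 3 in Kupffer cells and 26 in monocytes, and 22 for STZ against normal diet in peritoneal macrophages. DESeq2 called 2 in adipose tissue macrophages. For refeeding it called 4 in adipose, 1 in microglia and 16 in peritoneal libraries. It called 19 for STZ against normal diet in peritoneal and 5 in islet macrophages, and 1 for STZ against high-fat diet in islet macrophages. Without fasted adipose library 5, left out after seeing the data, 0 were called in adipose tissue macrophages. With library totals in place of TMM, 23 were called in colonic macrophages, and the medians were -0.27 in colonic macrophages, 0.43 in islet macrophages, -1.14 in microglia and 0.75 in monocytes. The causes were not tested, and the shares of all genes called under these settings are not given in this section.

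With 1 library left out at a time, 0 members were called in 8 diet contrasts and 0 to 1 for STZ against normal diet in peritoneal macrophages (1 without STZ library 3). For high-fat against normal diet the medians ranged from -0.32 to -0.15 in islet macrophages, -0.06 to 0.14 in microglia and -0.42 to -0.14 in peritoneal macrophages. For STZ against high-fat diet they ranged from -0.20 to -0.0089, -0.15 to 0.09 and -0.41 to -0.15, and for STZ against normal diet from -0.44 to -0.24, -0.07 to 0.15 and -0.71 to -0.29. Signs turned for Rpl13a (-0.18 to 0.70) and Rpl8 (-0.047 to 0.13) for high-fat against normal diet in islet macrophages, and there for Rpl19 (-0.070 to 0.23) and Rpl22 (-0.022 to 0.38) for STZ against normal diet. In peritoneal macrophages they turned for high-fat against normal diet for Rpl13a (-0.21 to 0.025), Rpl7l1 (-0.080 to 0.057) and Rps2 (-0.38 to 0.19), and for STZ against normal diet for Rps2 (-0.58 to 0.19). Without cohort 3, chosen after seeing the data, Rpl13a had 0.024, Rpl7l1 0.056 and Rps2 0.19 for high-fat against normal diet, and Rps2 0.18 for STZ. Library totals gave 0.054 for Rpl7l1 and 0.074 for Rps2 for high-fat against normal diet, -0.14 for Rpl13a in fasted islet macrophages and 0.18 for Rplp1 in monocytes. Rpl36al in Kupffer cells had 0.0068 with DESeq2 and 0.0064 with RLE factors.

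In the refeeding experiment the replicate block left 0 members called in all 7 populations, with medians of -0.13 in adipose, -0.06 in colon, -0.07 in islet, -0.18 in Kupffer, 0.03 in microglia, -0.07 in monocyte and -0.19 in peritoneal libraries. Deviations of same-numbered fasted and refed libraries of a population correlated by at most 0.224 there, and no population had all pairs above 0.1. With no replicate block, the diet contrasts had 0 members called in all 9, with medians from -0.64 to 0.10, and Rpl13a for STZ against high-fat diet in microglia had -0.036 (-0.046 to 0.88 with 1 library left out).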
